A study of Mus musculus with 20 samples.

Results

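The 10 genes described here are the transcription factor Sox9 and 9 genes of the cartilage matrix: Acan, Col2a1, Col9a1, Col9a2, Col9a3, Col11a2, Comp, Clec3a and Chad. They were chosen from earlier results of the AD comparison in these same libraries and were then looked up by gene symbol. All 10 were found among 19234 genes in the AD table and 19501 genes in the ACD table, and all 10 passed the filter on low counts in both. Because the AD contrast chose the genes, their AD differences are a description with no test. The ACD libraries were not used in that choice.

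Poly(A) RNA from mouse ears was sequenced in 20 libraries, 5 in each of 4 groups. The groups were AD model mice given SB415286 at 0.7 mg/kg, their AD controls, ACD model mice given SB415286 at 2 mg/kg, and their ACD controls. SB415286 inhibits GSK3, the kinase that marks beta-catenin for breakdown, and the study asked how this changes gene expression. All mice were C57BL/6, aged 6 to 7 weeks and weighing 16 to 18 g, injections were intraperitoneal, and ears were taken 4 h later. The controls are untreated by the sample labels and vehicle-injected by the design text, while for both doses the protocol mentions AD mice alone. How the models were induced is not given in the sources used here, and ears of mice outside the models were not analysed here. Nothing in the labels says whether libraries of a group came from separate animals, so p-values measure the spread between these libraries, which may be technical.

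Cartilage is built by chondrocytes, and in the external ear it forms the elastic plate of the auricle. Sox9 binds enhancers of Col2a1, Acan and other matrix genes and switches them on together with Sox5 and Sox6. Collagen II, from Col2a1, forms the fibrils, collagen XI sits inside them and collagen IX on their surface, while aggrecan, from Acan, holds water between them. Comp links collagens to other matrix proteins, Chad encodes chondroadherin, a leucine-rich protein that binds collagen II and integrins, and Clec3a encodes a cartilage C-type lectin.

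The libraries held 18165446 to 20862353 expected counts for AD ears and 18848409 to 20228703 for ACD ears. There were 2 AD libraries that stood apart. AD control replicate 6 correlated more with the SB415286 libraries (median r = 0.975 across genes) than with the other controls (median r = 0.960). AD SB415286 replicate 7 correlated with its own group and with the controls alike (0.948 and 0.947). In the ACD table all such medians lay between 0.974 and 0.988. There every SB415286 library correlated slightly more with the controls (0.976 to 0.986) than with its own group (0.974 to 0.984). Results that rest on these 2 libraries are given with and without them.

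On the RefSeq annotation of GRCm38.p6, Sox9 (Entrez 20682) spans chr11:112782210-112787757 and Chad (12643) lies on the same chromosome at chr11:94565047-94569127. The fibril collagen genes are Col2a1 (12824) at chr15:97975602-98004724 and Col11a2 (12815) at chr17:34038919-34066684. The collagen IX chains are Col9a1 (12839) at chr1:24177589-24252738, Col9a2 (12840) at chr4:121039566-121055325 and Col9a3 (12841) at chr2:180598102-180622192. Acan (11595) lies at chr7:79053226-79115099, Comp (12845) at chr8:70373548-70382066 and Clec3a (403395) at chr8:114418034-114428133. In GENCODE M21, Col9a3 shares 234 of its 3853 exonic bases with Tcfl5 on the opposite strand, and Chad lies within Acsf2 on the opposite strand with 0 shared exonic bases. Whether counting used the strand is not given in the sources used here.

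Among these genes Chad and Acan had by far the highest levels per transcript length in every group. In FPKM (fragments per kilobase and M reads), Chad averaged 134 ± 38.4 in AD SB415286 ears and 212 ± 50.8 in AD controls (SD, n = 5 each). Its level was 50.0 ± 16.7 FPKM in ACD SB415286 ears and 58.8 ± 23.4 FPKM in ACD controls. Acan came next, with 44.9 ± 8.76 FPKM in AD SB415286 ears, 41.5 ± 3.73 FPKM in AD controls, 15.7 ± 4.63 FPKM in ACD SB415286 ears and 20.9 ± 10.2 FPKM in ACD controls. The other 8 genes averaged between 0.918 FPKM (Col9a1 in AD SB415286 ears) and 17.2 FPKM (Col9a3 in AD controls). Col9a1 was lowest of the 10 in each of the 4 groups.

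AD controls had the highest mean FPKM of the 4 groups for every gene other than Acan. For Sox9, AD controls averaged 13.6 ± 4.29 FPKM (range 7.80 to 19.5) and the other 3 groups 5.69 to 6.63 FPKM, and among these only AD SB415286 ears, up to 7.99 FPKM, reached the AD control range. For Chad, the AD ranges (91.5 to 296 FPKM over both AD groups) lay above the ACD ranges (33.4 to 83.2 FPKM). Neighbours in the order of group means overlapped for the other 8 genes. The AD and ACD tables were normalised separately and no test was run between them.

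The ratio of Acan to Col2a1 was ordered differently, with its highest median in AD SB415286 ears and an AD control range that spanned both ACD ranges. Per length, the median Acan level was 30.4 times the Col2a1 level in AD SB415286 ears (range 11.4 to 56.5) and 6.00 times in AD controls (range 1.98 to 34.4). In the ACD table the median ratio was 3.55 in SB415286 ears (range 3.19 to 4.58) and 4.03 in controls (range 3.45 to 5.29). The Chad to Col2a1 ratio had medians of 93.2 in AD SB415286 ears, 27.9 in AD controls, 11.2 in ACD SB415286 ears and 12.7 in ACD controls. Both ratios varied far more within the AD groups than within the ACD groups, and Col9a1, for comparison, stayed between 0.426 and 0.816 times Col2a1 over the 10 AD libraries.

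**Figure D1:**
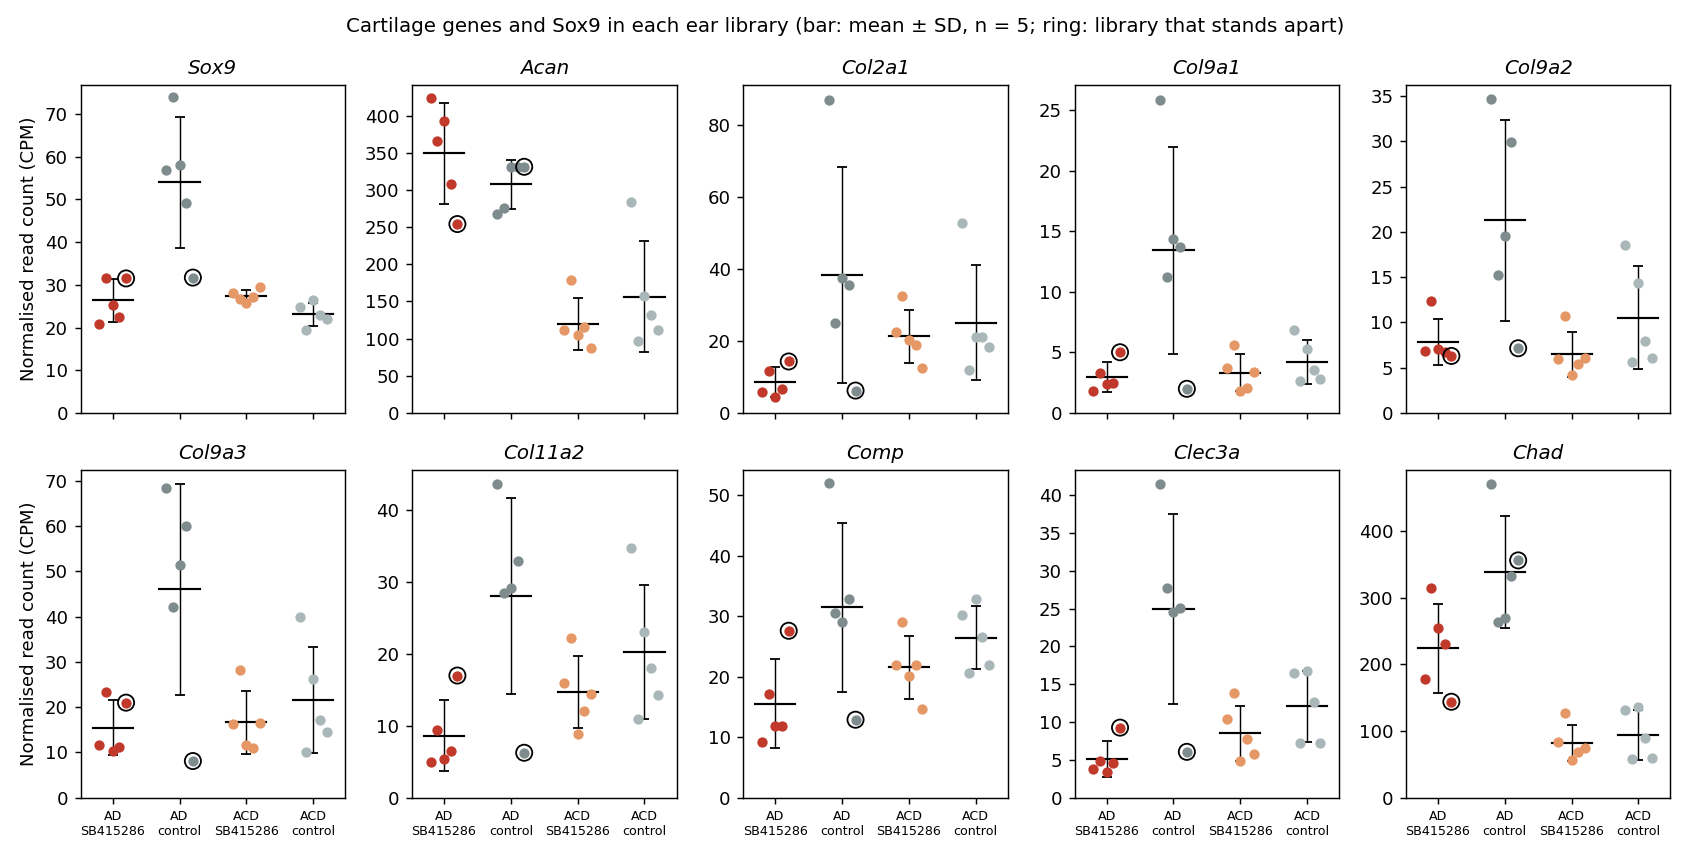
Normalised read count (CPM, vertical axis, from 0) of each gene in every library, by group; points are libraries, the bar is the mean with its SD (n = 5), and rings mark AD SB415286 replicate 7 and AD control replicate 6. Control 6 is the lowest AD control for 8 genes but not for Acan and Chad, where AD libraries lie above most or all ACD libraries.

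In AD ears, 9 of the 10 genes were lower with SB415286 and Acan was not. Counts are given as TMM-normalised CPM (counts per M, mega), a scale for comparing 1 gene between libraries. In bulk tissue, fewer chondrocytes in a sample and less RNA per chondrocyte cannot be told apart. Sox9 had 20.9, 31.7, 25.3, 22.5 and 31.5 CPM in the SB415286 libraries, against 57, 74.1, 58, 49.1 and 31.7 CPM in the controls. The 2 groups met at 31.7 CPM without overlapping, and the lowest control was replicate 6. Its log2 fold change, SB415286 over control, was -1.03 ± 0.21 (SE of the edgeR fit).

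Clec3a had 3.76, 4.81, 3.35, 4.59 and 9.27 CPM with SB415286, against 41.4, 27.7, 24.5, 25.1 and 6.07 CPM in controls. Control 6 fell among the SB415286 values, SB415286 replicate 7 was the highest of its own group, and the other 4 controls were all above 24 CPM. The log2 fold change was -2.27 ± 0.45. Sox9 and Clec3a were the 2 of the 10 genes past an adjusted p of 0.05 in this fit, both lower, where 0.647% of the 15149 genes tested were called lower and 0.587% higher. In 1 of the 10 genes, Sox9, the groups did not overlap, with SB415286 lower, and in none with SB415286 higher, against 2.37% and 2.28% of all genes tested. The AD contrast chose these genes, and nothing is read from those shares.

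The fibril collagen Col2a1 had 5.75, 11.6, 4.49, 6.54 and 14.3 CPM in SB415286 ears, against 87.1, 24.9, 37.6, 35.6 and 6.21 CPM in control ears. Controls ranged over 14.0-fold, from replicate 6 to replicate 1, so the difference of -2.16 ± 0.59 on the log2 scale carried a wide error. Its fibril partner Col11a2 ranged from 4.97 to 17.0 CPM with SB415286 and from 6.26 to 43.6 CPM in controls, a log2 difference of -1.70 ± 0.48. The highest SB415286 value was again replicate 7 and the lowest control again replicate 6.

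The 3 chains of collagen IX were all lower. Col9a1 averaged 2.98 ± 1.26 CPM with SB415286 and 13.4 ± 8.55 CPM in controls (SD, n = 5 each), with a log2 fold change of -2.17 ± 0.54. Col9a2 averaged 7.86 ± 2.55 CPM with SB415286 and 21.3 ± 11.1 CPM in controls, a log2 fold change of -1.44 ± 0.38. Col9a3 averaged 15.5 ± 6.16 CPM with SB415286 and 46.0 ± 23.3 CPM in controls, a log2 fold change of -1.57 ± 0.47. In each of these genes control 6 lay inside or below the SB415286 range. Comp, the oligomeric matrix protein, averaged 15.5 ± 7.35 CPM with SB415286 and 31.5 ± 13.9 CPM in controls, a log2 fold change of -1.01 ± 0.37.

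Chad and Acan differed from the other matrix genes. Chad had 178, 315, 255, 230 and 144 CPM with SB415286, against 471, 264, 270, 332 and 356 CPM in controls, a log2 difference of -0.59 ± 0.23. Its groups overlapped, and control 6 was the second highest control rather than the lowest. Acan had 424, 366, 393, 308 and 254 CPM in the SB415286 libraries, against 268, 275, 331, 331 and 331 CPM in control libraries. Its log2 fold change was 0.18 ± 0.14, the only positive value among the 10. The 10 genes had a median log2 fold change of -1.50, where the median over all genes tested was 0.

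Without SB415286 replicate 7 and control replicate 6, Sox9 averaged 25.1 ± 4.74 CPM in SB415286 ears and 59.6 ± 10.5 CPM in controls (SD, n = 4 each). Clec3a then averaged 4.13 ± 0.689 CPM with SB415286 and 29.7 ± 7.93 CPM in controls, and Col2a1 7.09 ± 3.11 CPM with SB415286 and 46.3 ± 27.8 CPM in controls. The log2 fold changes became -1.25 ± 0.16 for Sox9, -2.85 ± 0.20 for Clec3a, -2.71 ± 0.44 for Col2a1 and -2.36 ± 0.22 for Col11a2. They became -2.72 ± 0.30 for Col9a1, -1.59 ± 0.30 for Col9a2, -1.98 ± 0.27 for Col9a3 and -1.53 ± 0.23 for Comp. For Acan the value was 0.30 ± 0.13 and for Chad -0.46 ± 0.22. The number of genes of the 10 past the threshold was 8 without both libraries, 6 without SB415286 replicate 7 alone and 8 without control 6 alone. Of all genes tested, 25.7% were called without both, 7.37% without SB415286 replicate 7 and 9.30% without control 6. The members' count was 0 when any 1 of the other 8 libraries was left out. Over all genes, 187 were called in the AD fit, against 3894 without both libraries, 1122 without SB415286 replicate 7, 1423 without control 6, 21 without SB415286 replicate 6, 1 without SB415286 replicate 2 and 0 without any 1 of SB415286 replicates 3 and 4 and controls 1, 2, 4 and 5. The AD calls of single genes given below carry the same limit.

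**Figure D2:**
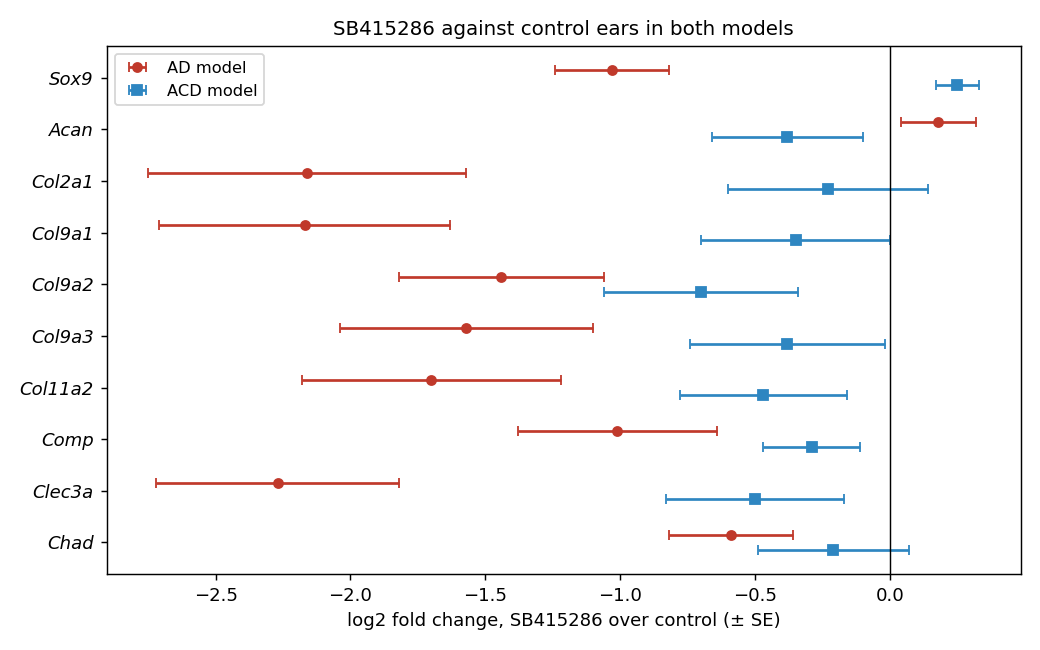
Log2 fold change of each gene, SB415286 over control, with its SE from the edgeR fit (horizontal axis), for AD ears (circles) and ACD ears (squares). For AD ears 9 genes lie below 0, by -0.59 to -2.27, and for ACD ears 9 lie between -0.21 and -0.70 with Sox9 at 0.25.

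The ACD comparison, which played no part in choosing the genes, gave no call. By edgeR's quasi-likelihood test, adjusted after Benjamini and Hochberg over 15150 genes, none of the 10 passed; of all genes tested, 0.0198% were called higher and 0.0066% lower. At an unadjusted p under 0.05 there was 1 of the 10 genes, Sox9, against 13.8% of all genes tested, and DESeq2 called 0 of the 8 genes to which it gave an adjusted p (all but Col9a1 and Col9a2), while it called 2.74% of all 15150 genes fitted. The groups overlapped for all 10 genes, where 1.59% of all genes tested were separated with SB415286 lower and 1.72% with SB415286 higher. The median log2 fold change of the 10 was -0.36 and 9 of 10 were below 0, against a median of -0.01 and 51.5% below 0 over all genes tested. The genes varied together between ACD libraries, so the 10 are not separate observations. Several of these values moved close to 0 without control 1, as given below.

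Sox9 in ACD ears had 28.2, 26.7, 25.8, 27.2 and 29.5 CPM with SB415286, against 24.8, 19.3, 26.4, 22.9 and 22 CPM in controls. The ranges overlapped at 1 control, replicate 4. The log2 fold change was 0.25 ± 0.08, with an adjusted p of 0.251 by edgeR, and it stayed between 0.19 and 0.30 when each library was left out in turn. In the AD model the same contrast was -1.03 ± 0.21. That the 2 models differ in this contrast was not tested, since the AD contrast chose the gene.

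For the matrix genes in ACD ears, 1 control library set much of the spread. Col2a1 had 22.4, 32.6, 20.3, 18.8 and 12.4 CPM with SB415286, against 52.9, 11.8, 21, 21.1 and 18.4 CPM in controls. Control 1 was far above the other 4, which lay within the SB415286 range or just below it. The log2 fold change was -0.23 ± 0.37 (edgeR adjusted p = 0.821), and without control 1 it was 0.24 ± 0.26. Control 1 was the highest control for 6 of the 10 genes, control 3 the lowest for all 10, and SB415286 replicate 4 the highest of its group for 9.

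Col9a2 had the largest ACD difference of the 10, at -0.70 ± 0.36 (edgeR adjusted p = 0.421), with 6.48 ± 2.49 CPM in SB415286 ears and 10.5 ± 5.71 CPM in controls (SD, n = 5 each). Clec3a averaged 8.52 ± 3.64 CPM with SB415286 and 12.1 ± 4.74 CPM in controls, a difference of -0.50 ± 0.33 on the log2 scale. Values for Col11a2 (-0.47 ± 0.31), Acan (-0.38 ± 0.28), Col9a3 (-0.38 ± 0.36), Col9a1 (-0.35 ± 0.35), Comp (-0.29 ± 0.18) and Chad (-0.21 ± 0.28) lay within 2 SE of 0. Their edgeR adjusted p-values ran from 0.491 to 0.787. Acan had 111, 179, 105, 116 and 87.9 CPM with SB415286, against 283, 96.2, 157, 132 and 112 CPM in controls, and its log2 difference was -0.05 without control 1. Without the same control the log2 fold change was -0.39 for Col9a2, -0.36 for Clec3a, -0.18 for Col11a2, -0.10 for Col9a1, -0.06 for Chad and -0.04 for Col9a3. Leaving out SB415286 replicate 4 moved values the other way, to -0.96 for Col9a2 and -0.65 for Col9a3.

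How the genes varied from library to library was then compared within groups, using each gene's log2 CPM minus its own group mean. This measure takes out the difference between group means. In AD ears it may still hold part of the difference between treated and control ears, which was not tested. There, control 6 correlated more with the SB415286 libraries (median r = 0.975 across genes) than with the other controls (0.960). Col11a2 and Col9a2 varied together in both models (r = 0.73 in AD ears and 0.96 in ACD ears), as Acan and Chad did with them in ACD ears. In AD ears Acan, and in some AD libraries Chad, did not. Col9a1 also varied with Col11a2 (r = 0.97 in AD ears and 0.96 in ACD ears), but its promoters are not shown. Promoters of 4 of the genes, Col11a2, Col9a2, Acan and Chad, are shown. They are the 250 bases before an annotated start, from RefSeq on GRCm38.p6, plus strand, at chr17:34038888-34039137 (Col11a2), chr4:121039316-121039565 (Col9a2), chr7:79052976-79053225 (Acan) and chr11:94564797-94565046 (Chad). The Col11a2 window runs past the gene's first base (chr17:34038919), so it precedes an internal start and lies mostly within the gene. Capitals mark the GC box GGGCGG on either strand and the TATA motif TATAAA on either strand.
Col11a2: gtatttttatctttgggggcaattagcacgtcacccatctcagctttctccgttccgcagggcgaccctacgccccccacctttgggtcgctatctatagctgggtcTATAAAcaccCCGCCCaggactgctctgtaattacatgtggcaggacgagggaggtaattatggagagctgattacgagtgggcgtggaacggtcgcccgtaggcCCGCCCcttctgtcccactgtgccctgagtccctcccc
Col9a2: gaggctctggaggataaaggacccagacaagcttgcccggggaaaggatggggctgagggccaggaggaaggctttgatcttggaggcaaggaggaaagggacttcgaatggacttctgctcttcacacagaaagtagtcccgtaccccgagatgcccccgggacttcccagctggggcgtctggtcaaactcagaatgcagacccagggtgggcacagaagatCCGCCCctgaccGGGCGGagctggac
Acan: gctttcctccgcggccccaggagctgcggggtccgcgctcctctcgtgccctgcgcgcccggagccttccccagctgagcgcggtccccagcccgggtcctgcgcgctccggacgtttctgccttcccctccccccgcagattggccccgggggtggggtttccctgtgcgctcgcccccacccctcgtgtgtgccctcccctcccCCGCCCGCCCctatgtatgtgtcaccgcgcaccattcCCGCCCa
Chad: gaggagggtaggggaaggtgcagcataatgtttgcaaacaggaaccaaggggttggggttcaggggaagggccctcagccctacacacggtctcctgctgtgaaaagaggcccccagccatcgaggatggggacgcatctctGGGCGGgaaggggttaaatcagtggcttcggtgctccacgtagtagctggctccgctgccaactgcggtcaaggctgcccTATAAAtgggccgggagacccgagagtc

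The Acan window was 74.4% G and C, a share reached by 4.58% of the 32851 mouse promoter windows of that length, whose median was 52.4%. Col9a2 and Chad stood at 60.4% and Col11a2 at 57.6%. GGGCGG or its complement was found 3 times in Acan, with 2 of the matches overlapping each other, 2 times each in Col11a2 and Col9a2 and 1 time in Chad, and 32.7% of all windows held it. TATAAA was found 1 time each in Col11a2 and Chad, as in 12.4% of all windows. The SOX-type motifs ACAAAG and ACAATG, held on either strand by 16.5% and 10.7% of all windows, were found in none of the 4. The windows of Col9a1 (2 annotated starts) held none of the 4 motifs. Sox9, Col2a1, Col9a3, Comp and Clec3a were not in the promoter table.

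In the AD libraries, 7 of the genes (Col2a1, the 3 collagen IX chains, Col11a2, Comp and Clec3a) varied closely together. This set of 7 was named after seeing the values, and its correlations are a description over libraries that share tissue and processing. Among the 7, Pearson r of the deviations had a median of 0.94 over 21 pairs in the 10 AD libraries (range 0.68 to 0.98) and of 0.81 in the 10 ACD libraries (range 0.60 to 0.97). Control 6 lay 1.84 log2 units below its group mean for the average of the 7, and AD control 1 lay 1.06 above. Without control 6 and SB415286 replicate 7, the median among the 7 in AD ears was 0.84.

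Acan did not follow them in AD ears. Its r with the 7 genes ran from -0.68 to -0.04 there, with a median of -0.49, and in ACD ears it ran from 0.77 to 0.96 with a median of 0.86. With the 2 libraries that stood apart left out, the AD median was -0.41 over 8 libraries (range -0.71 to -0.01). In control 6, where Col9a1 lay 2.32 log2 units under its group mean, Acan lay 0.11 above its own. In ACD control 1, Acan was 0.97 above its mean and Col2a1 1.27 above. No test of the difference between the models was run.

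Chad behaved differently from Acan. Its r with the 7 had a median of 0.00 in the 10 AD libraries (range -0.18 to 0.42) and 0.93 in the ACD libraries (range 0.70 to 0.97). Without the same 2 AD libraries, the AD median was 0.85 (range 0.70 to 0.97). Chad deviated by -0.59 in SB415286 replicate 7, where the 7 averaged 0.71, and by 0.11 in control 6, where they averaged -1.84. Its low AD correlation therefore rested on those libraries, and that of Acan did not.

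**Figure D3:**
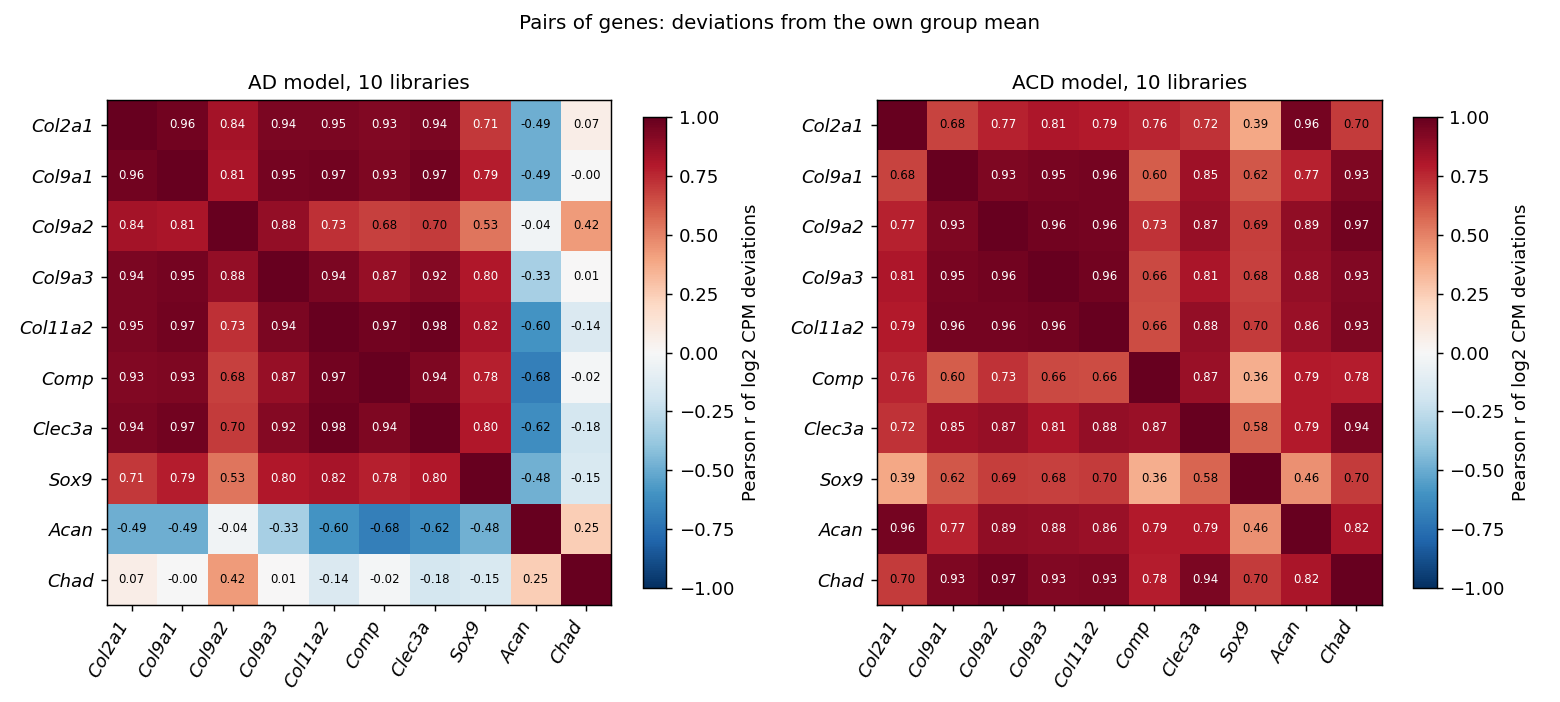
Pearson r between the library deviations (log2 CPM minus own group mean) of each pair of genes in the 10 AD libraries (left) and the 10 ACD libraries (right); colour runs from -1 to 1 and diagonal cells are 1 by construction. The block of 7 genes is positive in both panels, whereas Acan is negative with them in AD ears, with a median of -0.49, and positive in ACD ears, with a median of 0.86.

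Sox9 was compared with each of the 9 matrix genes over all 20 libraries, permuting libraries within groups 100000 times (two-sided, Benjamini-Hochberg over the 9 pairs). Its deviations followed those of 5 genes past the threshold. Pearson r was 0.78 with Col11a2 (adjusted permutation p = 0.0158), 0.75 with Col9a3 (0.0158 in the same test), 0.75 with Col9a1 (0.0163), 0.73 with Clec3a (0.0158) and 0.71 with Comp (0.0231). Spearman's rho for these pairs was 0.62 to 0.71, with adjusted permutation p-values of 0.00648 to 0.0124. With Col2a1, r was 0.64 (adjusted permutation p = 0.0586) and rho 0.56 (0.0429), and with Col9a2 r was 0.53 (0.0802) and rho 0.43 (0.111). Acan and Chad had r of -0.05 and 0.10 with Sox9, and rho of -0.06 and 0.16. Within the ACD libraries alone, r with Sox9 was 0.46 for Acan and 0.70 for Chad (adjusted permutation p = 0.348 and 0.121), and within the AD libraries alone it was -0.48 for Acan and -0.15 for Chad.

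Without the 2 libraries farthest from the median of the matrix gene, r for the 5 pairs was 0.49 to 0.58. Within the 10 AD libraries r for the same 5 was 0.78 to 0.82, with adjusted permutation p-values of 0.0625 to 0.0680. Within the 10 ACD libraries it was 0.36 to 0.70, with adjusted permutation p-values of 0.121 to 0.348. Neither model alone gave a pair past the threshold. Over the 7 genes named above, the median r of Sox9 was 0.79 in the 10 AD libraries, 0.20 without the 2 AD libraries that stood apart, and 0.62 in the ACD libraries. Without AD control 6 no pair passed, with r of 0.45 to 0.57 for the 5 and adjusted permutation p-values of 0.139 to 0.148. The pooled relation thus did not hold within models at that threshold, and its calls rested on that library, in which Sox9 lay 0.71 log2 units below the control mean.

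**Figure D4:**
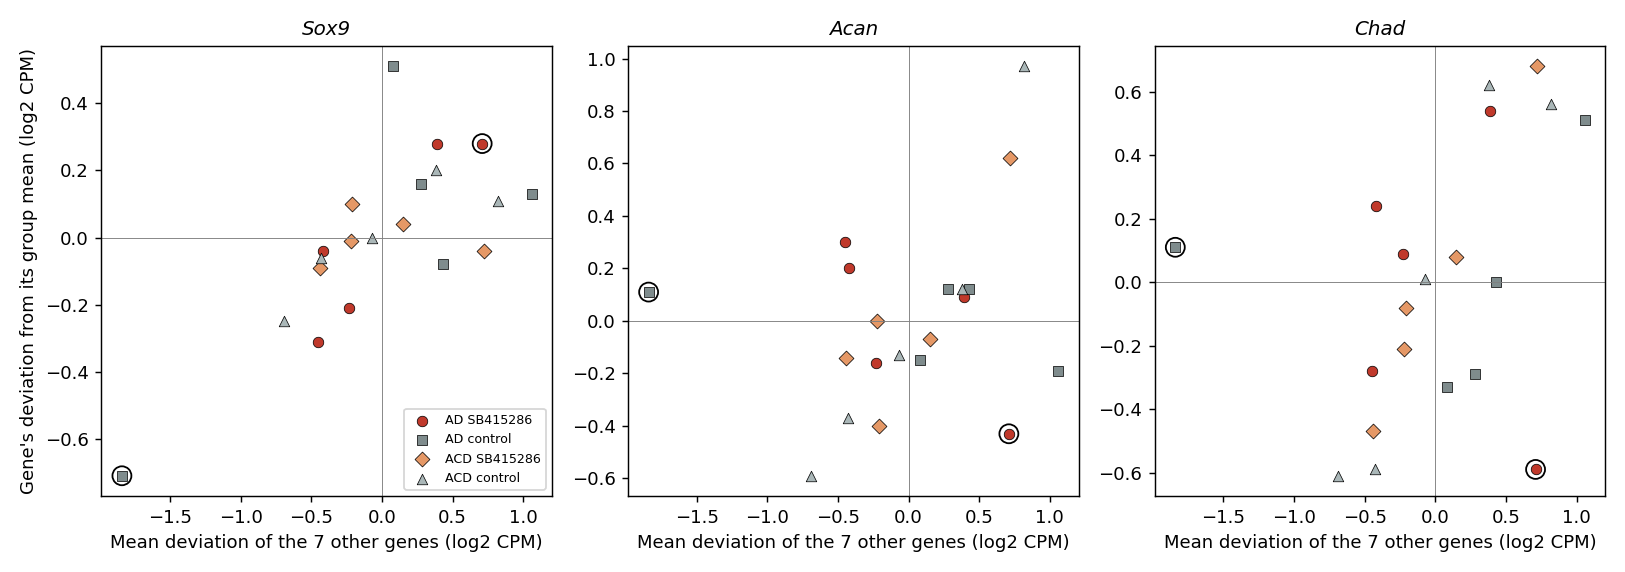
Deviation of Sox9, Acan and Chad from the own group mean (vertical axes, log2 CPM) against the mean deviation of the other 7 genes (horizontal axes, log2 CPM), 1 point a library; rings mark AD SB415286 replicate 7 and AD control replicate 6. Control 6 lies at -1.84 on the horizontal axis, with Sox9 at -0.71 but Acan and Chad both at 0.11.

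Of 14677 other genes tested in both models, the 10 whose deviations were most like the mean of the cartilage genes over the 20 libraries included several genes of cartilage. The highest r was that of Itih5l-ps (0.98), followed by Cmtm5 (0.94), Snorc (0.94), a chondrocyte transmembrane proteoglycan, and Wif1 (0.93), a secreted inhibitor of Wnt ligands. S100b (0.92), a calcium-binding protein of chondrocytes and Schwann cells, Col8a1 (0.92), a short-chain collagen, Ecm2 (0.91), Igf1 (0.91), the insulin-like growth factor, Col11a1 (0.91), a collagen XI chain, and Susd5 (0.90) completed the 10. Their r was 0.91 to 0.99 within the AD libraries and 0.85 to 0.98 within the ACD libraries.

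These 10 genes were all lower in SB415286 ears in the AD model, by log2 fold changes of -0.70 (Igf1) to -2.39 (Cmtm5). They were picked for deviations like those of genes that the AD contrast chose. Deviations in AD ears may hold part of the difference between treated and control ears, as given above. The shared AD direction of these genes is therefore a description with no test. By edgeR, Cmtm5 (-2.39 ± 0.49, adjusted p = 0.0488) and Ecm2 (-0.83 ± 0.17, adjusted p = 0.0489) passed the threshold. Of all genes tested in the AD model, 0.647% were called lower and 0.587% higher. Nothing is read from these calls against those shares, since the choice of genes was not independent of the AD contrast. Wif1 averaged 129 ± 35.1 CPM with SB415286 and 334 ± 121 CPM in AD controls (SD, n = 5 each; edgeR adjusted p = 0.0612), and Snorc 6.93 ± 1.44 CPM with SB415286 and 18.6 ± 7.36 CPM in AD controls (edgeR adjusted p = 0.0523). In the ACD model none of the 10 passed, and their log2 fold changes ran from -0.38 (Itih5l-ps) to 0.14 (S100b). S100b was also the only 1 of the 10 above 0 there.

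Other genes of cartilage were followed as lists, chosen with earlier results of these data known. Of 21 further matrix and chondrocyte genes, 17 were tested in the AD model and 13 of them were below 0, with a median log2 fold change of -1.25. Over all genes tested there, 49.9% were below 0 and the median was 0. Cilp, a protein of the cartilage intermediate layer, was called lower, with 28.3 ± 5.22 CPM in SB415286 ears and 75.4 ± 30.2 CPM in controls (log2 fold change -1.41 ± 0.27, edgeR adjusted p = 0.0461). The other 16 tested did not pass, where 0.647% of all genes tested were called lower and 0.587% higher. In the ACD model 19 were tested, none passed, 16 were below 0 and the median was -0.17. Over all genes tested in that model, 51.5% were below 0 and the median was -0.01. Prg4, the lubricating proteoglycan of joint surfaces, averaged 702 ± 141 CPM in SB415286 ears and 435 ± 84.9 CPM in ACD controls (log2 fold change 0.69 ± 0.16, edgeR adjusted p = 0.161). Col10a1, the collagen of hypertrophic cartilage, had an ACD value of -0.67 ± 0.28 (edgeR adjusted p = 0.327).

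Among regulators of chondrocyte differentiation, 2 of the 10 tested were called lower in AD ears and none higher. Of all genes tested there, 0.647% were called lower and 0.587% higher. Fgfr3, the receptor that restrains chondrocyte proliferation, had 123 ± 20.9 CPM with SB415286 and 224 ± 15.9 CPM in controls (log2 fold change -0.86 ± 0.12, edgeR adjusted p = 0.0382). Its groups did not overlap, with 99.7 to 145 CPM under SB415286 and 207 to 249 CPM in controls. Control 6, the lowest control for 8 of the 10 cartilage genes, is among these controls, so its Fgfr3 level was at least 207 CPM. Mef2c, a transcription factor of chondrocyte hypertrophy and of muscle, had 21.2 ± 3.09 CPM with SB415286 and 36.4 ± 7.45 CPM in controls (log2 fold change -0.78 ± 0.15, edgeR adjusted p = 0.0461). The list's median log2 fold change was -0.30 in AD ears and 0.17 in ACD ears. In ACD ears none of the 10 tested passed, and the smallest p belonged to Runx3 (0.27 ± 0.09, edgeR adjusted p = 0.226), a runt-family factor of cartilage and T cells, and to Sox5 (0.35 ± 0.14, edgeR adjusted p = 0.317), the partner of Sox9.

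None of the 10 genes for making and sulfating proteoglycan chains passed in either model, and the list's median log2 fold change was -0.18 in AD ears and 0.15 in ACD ears. Ugdh, which makes the UDP-glucuronate used for these chains, had 88.9 ± 14.9 CPM with SB415286 and 64.5 ± 3.67 CPM in AD controls (edgeR adjusted p = 0.0659). Papss2, which makes the sulfate donor, had an AD value of 0.30 ± 0.17 (edgeR adjusted p = 0.343). The ACD values were 0.41 ± 0.14 for the sulfotransferase Chst11 (edgeR adjusted p = 0.261) and 0.48 ± 0.18 for the chondroitin synthase Chsy3 (edgeR adjusted p = 0.285).

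None of 10 cartilage-degrading enzymes and inhibitors passed either, with medians of 0.10 in AD ears and 0.01 in ACD ears. Timp3, a matrix-bound inhibitor of metalloproteinases, had 381 ± 42.8 CPM with SB415286 and 546 ± 70.5 CPM in AD controls (log2 fold change -0.52 ± 0.12, edgeR adjusted p = 0.0589). The COMP-cleaving protease Adamts7 was at 0.90 ± 0.26 in AD ears (edgeR adjusted p = 0.103) and at 0.33 ± 0.13 in ACD ears (edgeR adjusted p = 0.294). The stromelysin Mmp3 was at 0.50 ± 0.21 in ACD ears (edgeR adjusted p = 0.324).

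Elastic fibres give auricular cartilage its spring, and elastin varied as widely as the collagens. Eln had 130 ± 75.9 CPM with SB415286 and 665 ± 580 CPM in AD controls, with controls spread from 132 to 1659 CPM (log2 fold change -2.35 ± 0.62, edgeR adjusted p = 0.0838). The microfibril protein Mfap4 had 12 ± 3.70 CPM with SB415286 and 67.9 ± 69.8 CPM in AD controls (log2 fold change -2.50 ± 0.60, edgeR adjusted p = 0.0651). None of the 11 elastic fibre genes passed in either model, and their medians were -0.35 in AD ears and -0.08 in ACD ears. In ACD ears Eln was at -0.52 ± 0.24 (edgeR adjusted p = 0.367) and Mfap5 at -0.31 ± 0.19 (edgeR adjusted p = 0.524).

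Markers of other ear tissues moved with the cartilage genes in part, and their part in these results was not tested. Of all genes tested, 49.9% were below 0 in AD ears and 51.5% in ACD ears. All 15 skeletal muscle markers were below 0 in both models without any passing, with medians of -1 in AD ears and -0.54 in ACD ears. Their summed level ran from 186 to 3808 CPM (without TMM) in AD SB415286 libraries and from 2172 to 4895 in AD controls. The lowest was SB415286 replicate 7 and the highest control 6, whereas control 6 was the lowest control for 8 of the 10 cartilage genes and replicate 7 the highest SB415286 library for 5. In the ACD model the sums ran from 145 to 1131 CPM with SB415286 and from 590 to 1468 in controls. The muscle genes of smallest p were Casq1 (-1.91 ± 0.48, edgeR adjusted p = 0.0697) and Pvalb (-1.87 ± 0.66, edgeR adjusted p = 0.156) in AD ears, and Myh2 (-1.46 ± 0.61, edgeR adjusted p = 0.327) and Myh1 (-0.88 ± 0.49, edgeR adjusted p = 0.451) in ACD ears.

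Of 8 fibroblast markers 6 were below 0 in AD ears, none passed, and the median was -0.79. Their sums ran from 2958 to 7424 CPM with SB415286 and from 3682 to 10961 in AD controls, with control 6 the lowest control and SB415286 replicate 7 the highest of its group. In ACD ears the median was -0.01 and the sums were 8056 to 10137 with SB415286 and 8199 to 11491 in controls. The genes named by p were Dpt (-0.83 ± 0.31, edgeR adjusted p = 0.170) and Col1a2 (-0.74 ± 0.35, edgeR adjusted p = 0.268) in AD ears and Pdgfra (-0.20 ± 0.08, edgeR adjusted p = 0.319) and Col3a1 (-0.20 ± 0.12, edgeR adjusted p = 0.513) in ACD ears.

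Sox9 is also expressed in the hair follicle, whose outer root sheath and bulge markers formed another list. Whether follicle cells had a part in the Sox9 values was not tested. The markers' median log2 fold change was 0.38 in AD ears, with 7 of 9 above 0. In ACD ears their median was -0.30, with 7 of 9 below 0, and none passed in either model. Their sums were 1492 to 2649 CPM with SB415286 and 1214 to 1722 in AD controls, and 928 to 1223 with SB415286 and 1072 to 1634 in ACD controls. Krt75 was at 1.15 ± 0.37 (edgeR adjusted p = 0.127) and Lgr5 at -0.67 ± 0.21 (edgeR adjusted p = 0.123) in AD ears. Krt15, the other marker below 0 in AD ears, was at -0.15 ± 0.27 (edgeR adjusted p = 0.779). In ACD ears Nfatc1 was at 0.14 ± 0.07 (edgeR adjusted p = 0.383) and Fgf18 at -0.30 ± 0.15 (edgeR adjusted p = 0.412).

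Tendon, bone, adipocyte and Schwann cell markers were the other lists. The summed level of the Schwann cell markers was 231 to 296 CPM with SB415286 and 286 to 375 CPM in AD controls, and 134 to 179 CPM with SB415286 and 148 to 182 CPM in ACD controls. Cnp, an enzyme of myelinating cells, was at -0.33 ± 0.11 in ACD ears (edgeR adjusted p = 0.252).

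Tendon markers had medians of -0.17 over 4 tested in AD ears and 0.02 over 5 in ACD ears. Their sums were 126 to 252 CPM with SB415286 and 153 to 230 in AD controls, and 101 to 248 with SB415286 and 106 to 297 in ACD controls. Scx, the transcription factor of tendon cells, had 0.879 ± 0.107 CPM with SB415286 and 1.70 ± 0.326 CPM in AD controls (log2 fold change -0.95 ± 0.20, edgeR adjusted p = 0.0504). Mkx was at -0.40 ± 0.17 (edgeR adjusted p = 0.223) in AD ears and 0.36 ± 0.21 (edgeR adjusted p = 0.461) in ACD ears, and Tnmd at -0.45 ± 0.22 (edgeR adjusted p = 0.403) in ACD ears.

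Bone markers were low, with summed levels of 3.71 to 9.60 CPM with SB415286 and 3.05 to 8.91 in AD controls. In ACD ears the sums were 0.971 to 3.12 with SB415286 and 1.71 to 3.02 in controls. The 2 tested in AD ears were Ibsp (0.45 ± 0.42, edgeR adjusted p = 0.578) and Dmp1 (-0.27 ± 0.31, edgeR adjusted p = 0.649), and the 1 tested in ACD ears was Phex (0.33 ± 0.41, edgeR adjusted p = 0.760). Adipocyte markers had medians of -0.44 in AD ears and -0.15 in ACD ears with none of 6 past the threshold. Their sums were 301 to 477 CPM with SB415286 and 177 to 418 in AD controls, and 125 to 408 with SB415286 and 167 to 248 in ACD controls. Fabp4 was at 0.85 ± 0.20 (edgeR adjusted p = 0.0616) and Lep at -3.42 ± 1.07 (edgeR adjusted p = 0.121) in AD ears, and Fabp4 at 0.29 ± 0.27 (edgeR adjusted p = 0.669) and Cidec at -0.29 ± 0.38 (edgeR adjusted p = 0.778) in ACD ears. No marker of any list was at 0 in every library of a model.

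**Figure D5:**
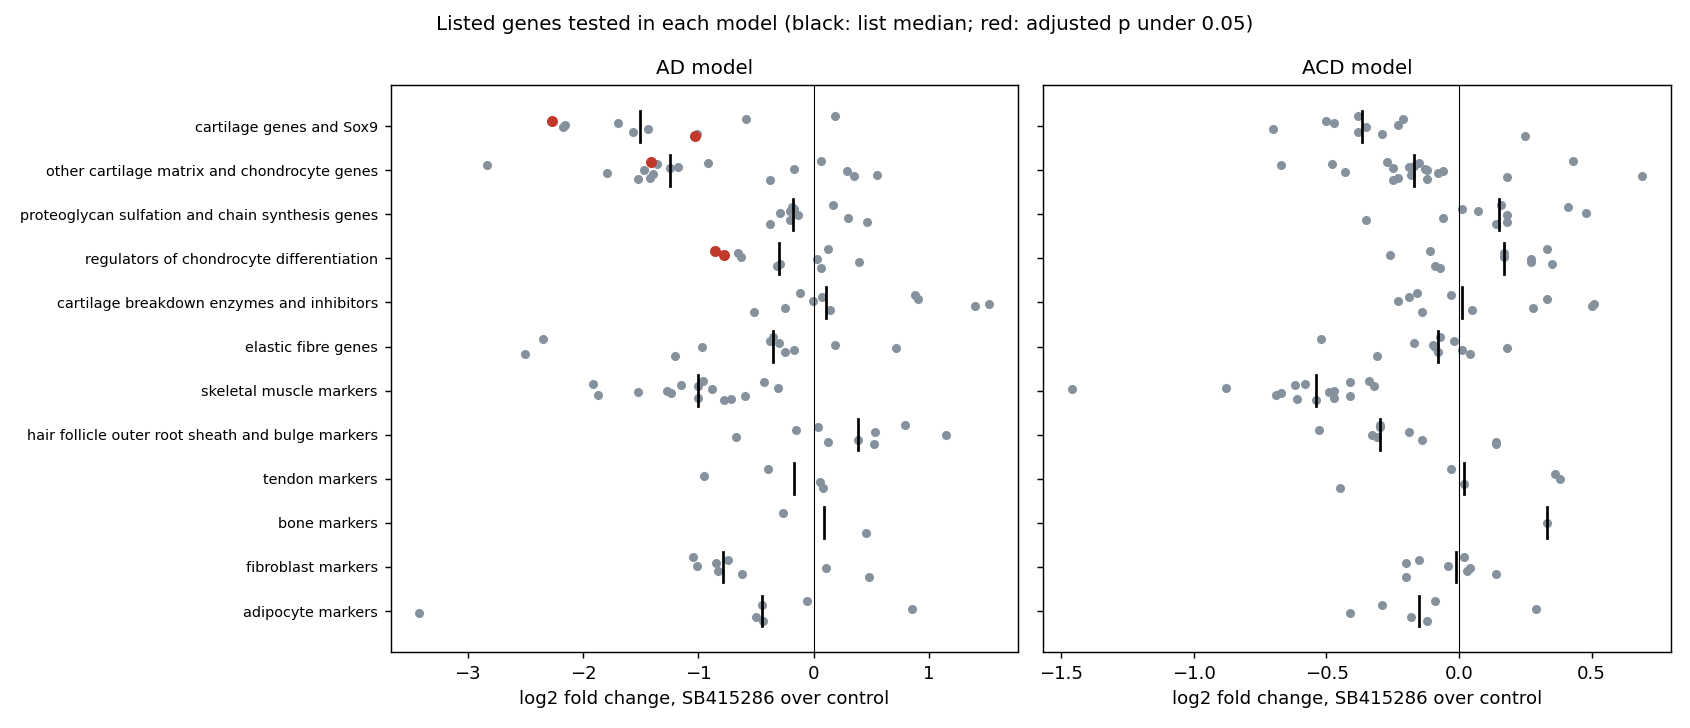
Log2 fold change, SB415286 over control, of every tested gene in the cartilage set and in each list other than the Schwann cell markers (horizontal axes; AD model left, ACD model right, with different scales); black bars are list medians and red points have an adjusted p under 0.05. In the AD model the cartilage set (median -1.50), the further cartilage genes (-1.25) and the muscle markers (-1) lie lowest, and no listed gene is red in the ACD model.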

How the data were processed

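Ear RNA of 20 mouse libraries was selected with oligo(dT) and sequenced on an MGISEQ-2000, per the labels' protocols. Per the submitters' processing notes, the tools included RSEM 1.2.8, Bowtie2 2.2.5 and HISAT, and the builds GRCm38.p6 and GRCh38.p13, with roles not stated. The authors deposited expected counts and FPKM per gene in 1 table per model; 20 TPM columns and 18 columns of group means were not used. Expected counts were rounded, filtered with filterByExpr, scaled by TMM and fitted per model in edgeR 4.0.16 (R 4.3.3) by the quasi-likelihood test of SB415286 over control, without covariates, with Benjamini-Hochberg adjustment over all genes and a threshold of 0.05. Deviations are log2 CPM (prior count 2) minus the group mean. Summed list levels are per M deposited counts without TMM. Alternatives were RLE and upper quartile scaling, no filter, DESeq2 1.42.0, limma 3.58.1 on log2(FPKM + 1) and log2(FPKM + 0.1) with FPKM of at least 1 in 5 libraries, the replicate number as a term, and libraries left out. Both tests were checked on simulated data. No simulated library stood apart from its group, so these checks do not cover that feature of the AD libraries.

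The genes and lists were chosen with earlier results of these data known. The rule for named genes took the 10 genes, the 10 others most like their mean deviation, and from each list up to 4 genes past the threshold or else the 2 of smallest p. Some results for the Schwann cell markers are not reported here. Totals of 18165446 to 20862353 counts per library set the precision, and the lowest gene, Col9a1, rested on 32 to 535 counts in AD libraries.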

Additional observations from a re-analysis of the deposited data

Results flagged for a closer look

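In 4 of the 40 sets of 5 libraries (10 genes in 4 groups), 1 library's gap to its nearest neighbour exceeded 0.71 of the set's range, the 95% critical value of Dixon's test. For separate normal samples, chance gives about 1 in 20 such sets. The sets here share libraries and hold CPM of genes that varied together, so their number is not compared with that share. Col2a1 in ACD control replicate 1 stood at 52.9 CPM, against 11.8 to 21.1 CPM in the other controls, a gap of 0.773 of the range. Col9a2 in AD SB415286 replicate 3 stood at 12.4 CPM, against 6.29 to 7.06 CPM in the others, a gap of 0.873. Col9a2 in ACD SB415286 replicate 4 stood at 10.7 CPM, against 4.21 to 6.08 CPM in the others, a gap of 0.714. Clec3a in AD SB415286 replicate 7 stood at 9.27 CPM, against 3.35 to 4.81 CPM in the others, a gap of 0.753.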

How the results depend on the processing

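The number of the 10 genes past the threshold in AD ears, 2 in the fit reported, was 2 under RLE scaling, 1 under upper quartile scaling, 7 under DESeq2, and 0 without the filter and under limma on log2(FPKM + 1) or log2(FPKM + 0.1). Over all genes those fits called 182, 170, 1227, 48, 220 and 221, in that order, against 187. Leaving out 1 library gave 0 to 8, and leaving out both SB415286 replicate 7 and control 6 gave 8. Without the filter, the adjusted p of Sox9 and Clec3a was 0.0584. The directions of the 10 AD values were the same in all 18 alternatives. In ACD ears the count was 0 in all 17 alternatives, which over all genes called from 1 (replicate block) to 415 (DESeq2). With a replicate block, 0 of the 10 genes passed in AD ears, where that fit called 0 of all 15149 genes. In ACD ears 0 of the 10 passed, and the block fit called 1 of all 15150 genes. The ACD log2 fold changes of Acan, Col2a1 and Col9a3 became 0.03, 0.50 and 0.06 with the block. Only the 3 numbers shared by both groups inform that fit. Same-numbered libraries correlated by -0.20 to 0.25 in AD ears and by -0.18 to 0.20 in ACD ears, so the numbers are not taken as pairs. Without 1 ACD library, Col2a1 ran from -0.45 to 0.24, 0.24 without control 1. The 5 pairs of Sox9 past the threshold were 5 under RLE scaling and log2(FPKM + 1), 6 under log2(FPKM + 0.1), 0 in AD libraries alone, 0 in ACD libraries alone, 0 without both AD libraries that stood apart, and 0 to 7 without 1 library. Sox9 with Acan, r = -0.05, became 0.02 and 0.03 under log2(FPKM + 1) and log2(FPKM + 0.1), 0.46 in ACD libraries and 0.14 without both, and ran from -0.18 to 0.03 without 1 library. Sox9 with Chad, r = 0.10, became -0.15 in AD libraries, 0.70 in ACD libraries and 0.41 without both. Leaving both AD libraries out of the correlations among the 7 genes, Acan and Chad was chosen after seeing the data. The causes were not tested.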
